A study of Danio rerio x Danio aesculapii and Danio rerio x Danio albolineatus and Danio rerio x Danio kyathit with 48 samples.

Results

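The 3 glutamine synthetase paralogs of the zebrafish, glula, glulb and glulc, were followed through the skin of interspecies Danio hybrids, as 3 of 19629 genes measured for the allele of each parent. They were picked by gene name, with their summed values and allele ratios by hybrid and kind of library already known. Those values are therefore given as a description, with no test. The mothers were Danio rerio, the zebrafish, and the fathers were Danio aesculapii, Danio albolineatus, Danio kyathit or Danio nigrofasciatus, so every cell held a rerio and a paternal copy of each gene. Adult hybrid skin was dissociated and sorted on membrane-bound reporters, and each sort was named for its cell: iridophores by pnp4a:mem-mCherry, melanophores by tyrp1b:mem-mCherry, xanthophores by aox5:mem-EGFP. Unenriched whole skin of the same hybrids served as the control. Each of the 4 hybrids had 3 replicates, numbered 3, 4 and 5, of each of the 4 kinds of library, which makes 16 groups and 48 libraries. The design calls them biological samples, but whether each came from other fish is not given, so p-values measure only the spread between these samples.

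Glutamine synthetase joins ammonia to glutamate at the cost of ATP and so makes glutamine. Glutamine gives its amide nitrogen to purines, pyrimidines, amino sugars and asparagine, and it can be broken down again to glutamate, which feeds proline, serine and glutathione synthesis. Iridophores are the reflective pigment cells of fish skin and hold crystals of the purine guanine. Melanophores hold melanin, and xanthophores hold pteridines and carotenoids.

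The values are allele counts scaled by the authors and rounded, on a scale common to all allele columns. Size factors recomputed on the 96 allele columns were 0.997 to 1.0029, so the rerio and paternal columns of a library were each on that scale. Paternal shares, equal alleles and summed values therefore refer to scaled values, not to reads. Any difference in total reads between the alleles of a library that the scaling removed cannot be seen here. Summed over all genes and both alleles, a library came to between 5173935 and 12500648. Because scaling hides the read number, depth was estimated from the scatter of allele shares between replicates. By that estimate 1 counted molecule was worth 6.22 to 276 scaled counts in a library. Real differences between replicates also enter that scatter, so a depth can be too low. Genes above 0 followed these depths in melanophore-enriched kyathit but not in every group. Melanophore-enriched aesculapii replicate 3 had the fewest estimated molecules, 36294, with 16794 genes above 0. Replicate 4 had 141732 molecules and 14699 genes. The median library held 196105 such molecules for iridophores, 94231 for melanophores, 92389 for xanthophores and 508935 for unenriched skin. Each reporter gene had its highest median in its own sort: pnp4a reached a median of 20884 in iridophore-enriched libraries against 275 in unenriched skin, tyrp1b 42681 against 276.5 in the melanophore sort, and aox5 1883 against 514 in the xanthophore sort. Markers of other cells also rose in a sort. In the iridophore sort, 4 of 6 tested melanophore markers were higher and 0 lower. The summed melanophore markers had a median of 11842.5 there against 1347.5 in unenriched skin. Of 7 tested xanthophore markers, 2 were higher and 4 lower in the iridophore sort. Of all genes tested in that sort, 24.1% were higher and 26.6% lower. In the melanophore sort, 8 of 8 tested iridophore markers and 5 of 7 tested xanthophore markers were higher. Of 9 tested macrophage and leukocyte markers, 6 were higher and 1 lower there. Of all genes tested in that sort, 18.6% were higher. In the xanthophore sort, summed keratinocyte markers ran from 90789 through a median of 152408 to 482732. In unenriched skin they ran from 112389 through 177881.5 to 267354. Of 9 keratinocyte markers tested in the xanthophore sort, 1 was higher and 0 lower, and of 7 fibroblast markers 0 were higher and 3 lower. Of 5 tested melanophore markers 3 were higher and 0 lower there, and of 6 tested iridophore markers 0 were higher and 0 lower. Of all genes tested in that sort, 8.53% were higher and 5.52% lower. The part of carried-over cells in these values and in the allele ratios of a sort was not tested. An unenriched library, kyathit replicate 5, stood apart, with a summed iridophore marker value of 51677 against 2600 and 4029 in the rest of its group, and unenriched nigrofasciatus replicate 3 had 23432 against 3225 and 3747. Without these libraries the iridophore difference of glula against unenriched skin was −0.85 in place of −0.78.

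In iridophore-enriched libraries, glula came mostly from the rerio allele in every hybrid. In most melanophore- and xanthophore-enriched libraries the paternal allele gave the larger share. The paternal allele gave 23.9% ± 11.2 (SD, n = 12) of the scaled glula value in iridophore-enriched libraries. It gave 66.7% ± 13.3 (SD, n = 12) in melanophore-enriched, 70.7% ± 8.36 (SD, n = 12) in xanthophore-enriched and 58.6% ± 11.7 (SD, n = 12) in unenriched libraries. The rerio value of glula exceeded the paternal value in 12 of 12 iridophore-enriched libraries, 2 of 12 melanophore-enriched, 1 of 12 xanthophore-enriched and 4 of 12 unenriched ones. By estimated depth glula was well covered for such a share, with a median of 116 molecules per iridophore-enriched library. Its thinnest library, xanthophore-enriched nigrofasciatus replicate 3, had an estimated 13.1 molecules.

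By hybrid, the glula values of iridophore-enriched aesculapii replicates 3, 4 and 5 were 6721, 6508 and 4519 for the rerio allele against 2791, 1284 and 2497 for the paternal one. In albolineatus they were 3319, 2408 and 3321 for rerio against 489, 924 and 497 for the father. In nigrofasciatus they were 4123, 2694 and 3303 for rerio against 885, 506 and 511 for the father. In these 3 hybrids the alleles did not overlap, and each rerio value stood above each paternal value of its group. How many of all genes had such a gap between alleles was not counted, so the gap is a description only. Kyathit was closest to balance, with 1257, 2358 and 2088 for rerio against 480, 2336 and 793 for the father. Its replicate 4 held the alleles at nearly equal values, and its other libraries favoured rerio as in the other hybrids. The kyathit iridophore-enriched libraries also held the lowest summed iridophore markers of their kind, at 188367, 167627 and 118971 against a median of 306303. Their paternal glula shares were 27.6%, 49.8% and 27.5% in the same order, and the part of the markers in these shares was not tested.

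**Figure D1:**
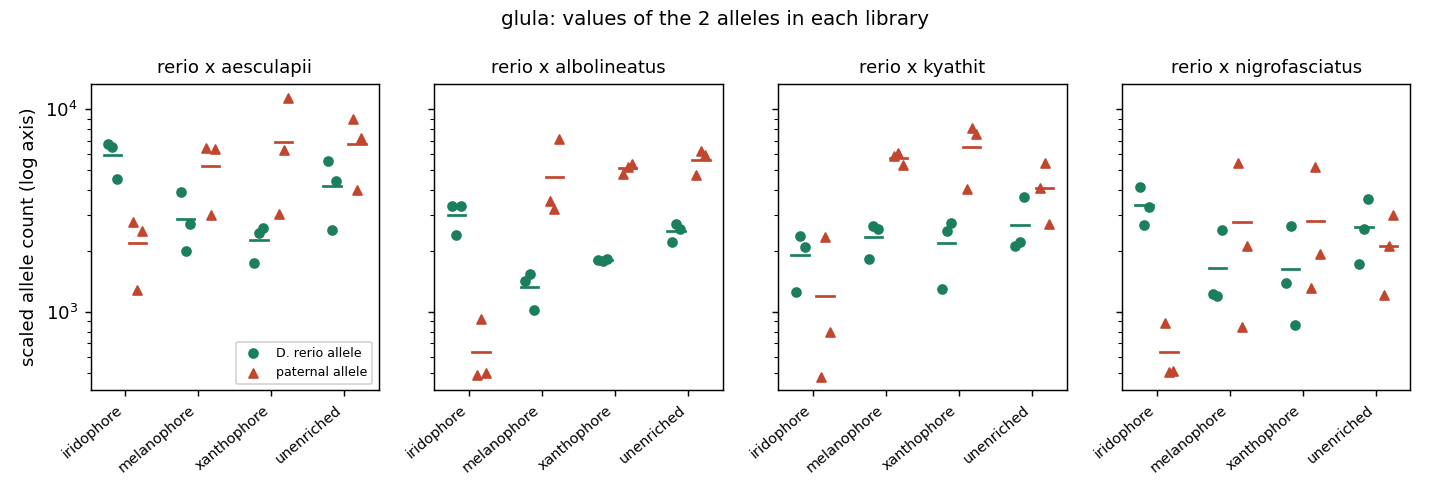
Scaled counts of the rerio (circles) and paternal (triangles) allele of glula in each of 48 libraries, on a log axis, by hybrid and kind of library, with bars at the mean of 3 replicates. The paternal allele lies lowest in the iridophore-enriched libraries, with a median of 839, while the rerio allele there has a median of 3311.

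In melanophore-enriched libraries of replicates 3, 4 and 5, the paternal share of glula was 62.3%, 60.2% and 70.1% in aesculapii. It was 71.3%, 67.6% and 87.5% in albolineatus and 76.3%, 69.6% and 67.6% in kyathit. In nigrofasciatus it was 81.5%, 41.3% and 45.5%, the only melanophore group that held libraries on both sides of equal alleles. Xanthophore-enriched libraries were more even in each hybrid except aesculapii. Their paternal share was 63.6%, 72.1% and 81.4% in aesculapii and 72.8%, 74.3% and 74.5% in albolineatus. It was 75.7%, 76.3% and 73.4% in kyathit, and 48.7%, 66.0% and 69.0% in nigrofasciatus. All the xanthophore libraries but nigrofasciatus replicate 3 were therefore on the paternal side.

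Unenriched skin had tight groups in 3 hybrids, with 61.7%, 61.2% and 61.8% paternal glula in aesculapii. The values were 68.0%, 69.7% and 69.8% in albolineatus and 41.2%, 44.9% and 45.5% in nigrofasciatus. Whole skin of the nigrofasciatus hybrid thus lay on the rerio side in all 3 libraries, and that of aesculapii and albolineatus on the paternal side. Unenriched kyathit had 65.9%, 71.0% and 42.3%. The low library, replicate 5, is the one with the high iridophore markers named above. Its pnp4a value was 3694 against 181 and 215 in its group. Its summed melanophore markers were high too, at 16656 against 459 and 1236. It held an estimated 74816 molecules against 963237 and 459574, but 17667 genes above 0 against 18618 and 17796. Unenriched nigrofasciatus replicate 3, also high in iridophore markers, had 41.2% paternal glula against 44.9% and 45.5% in its group. The part of markers or depth in these glula ratios was not tested.

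**Figure D2:**
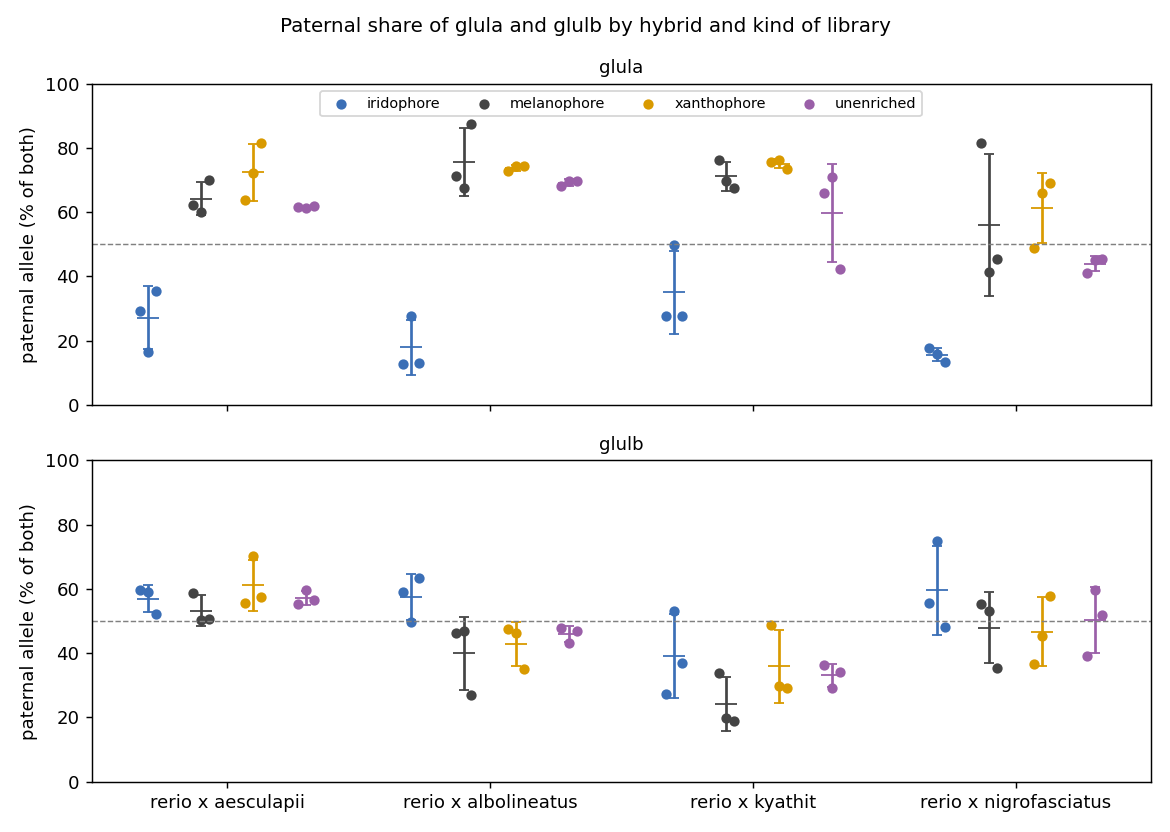
Paternal share of glula (top) and glulb (bottom) as a percentage of both alleles in each of 48 libraries, by hybrid and kind of library, with the mean and SD of 3 replicates; the dashed line marks equal alleles. For glula the iridophore-enriched libraries average 23.9% and the xanthophore-enriched ones 70.7%, while for glulb they average 53.3% and 46.7%.

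Allele ratios were also set relative to each library's other genes, as the log2 ratio of paternal over rerio molecules minus the library's median. For glula the iridophore mean minus the mean of the melanophore and xanthophore libraries of the same hybrid was −2.39 in aesculapii, −3.77 in albolineatus, −2.36 in kyathit and −2.92 in nigrofasciatus, all on the log2 scale. The pooled SD of the ratio within the 3 sorted groups was 0.51, 0.72, 0.50 and 0.96 in the same order. All 3 iridophore-enriched libraries lay below all 6 melanophore- and xanthophore-enriched ones in each of the 4 hybrids. That pattern held for 2.24% of all genes with a ratio in every library of the aesculapii hybrid, 2.95% in albolineatus, 2.53% in kyathit and 1.71% in nigrofasciatus. The unenriched libraries lay above the iridophore ones too, except in kyathit, so that all 9 other libraries stood higher in 3 hybrids. Of all genes, 1.79% did so in aesculapii, 2.05% in albolineatus, 0.955% in kyathit and 1.22% in nigrofasciatus. Of 659 genes with a ratio in all 48 libraries, glula was the 1 gene (0.152%) with it in all 4 hybrids, and 3 genes (0.455%) had it in at least 3. The ratio was among the values that the choice of glula rested on, so this place among all genes is a description. How reads were assigned to an allele, and at how many positions of a gene, is not given in the sources used here. The part of that assignment in the allele ratios of glula and of other genes was not tested.

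Averaged over the 4 hybrids, the iridophore shift of glula was −2.86 on the log2 scale, the lowest of the 659 genes. Their median was 0.03, with 90% of the values between −0.49 and 0.55 as the 5th and 95th percentiles. The next gene was angptl1a, at −2.39, named after its value was seen. Within single hybrids, glula was lowest of 1662 genes in albolineatus, with 1 of 1229 genes below it in nigrofasciatus, 4 of 1780 in kyathit and 6 of 894 in aesculapii. Leaving out any 1 replicate number kept glula below in all 4 hybrids, with 1 to 3 genes in all then sharing that pattern, and its shift stayed between −4.36 and −1.98 in each hybrid under all 6 alternatives. These settings were chosen after seeing the data.

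**Figure D3:**
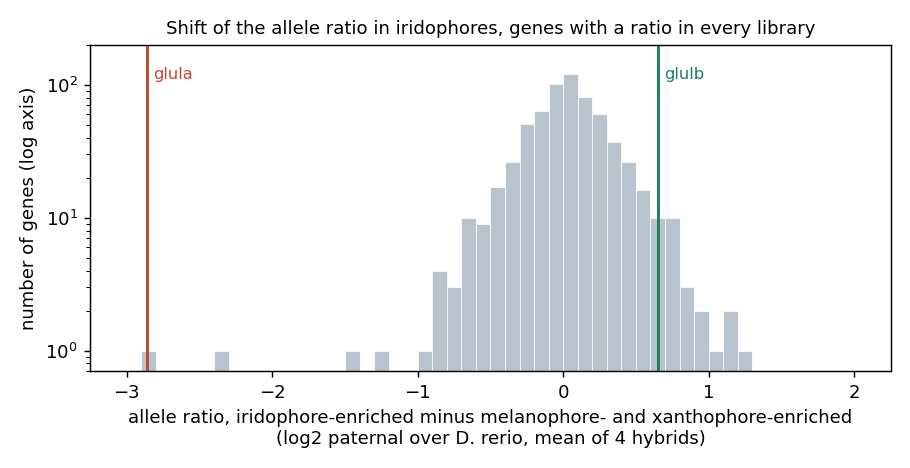
Histogram of the shift of the centred log2 allele ratio (paternal over rerio) between iridophore-enriched libraries and the mean of melanophore- and xanthophore-enriched ones, averaged over 4 hybrids, for 659 genes, with counts on a log axis. The line for glula is at −2.86 and that for glulb at 0.66, against a median of 0.03.

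The alleles also separated by level. In 4 of 4 hybrids, all 3 paternal glula values of the iridophore-enriched libraries lay below all 3 of unenriched skin, a pattern that 4.06% of 6251 tested genes had in all 4 and 19.4%, 26.0%, 13.0% and 12.8% had in aesculapii, albolineatus, kyathit and nigrofasciatus. The rerio values of the same libraries overlapped in every hybrid, while 18.4%, 26.6%, 14.1% and 14.8% of genes had rerio values below in the hybrids in that order and 4.58% in all 4. In the fit across all genes, the paternal allele of glula taken alone was lower in iridophores than in unenriched skin by a log2 difference of −2.18 ± 0.26 (SE), and the rerio allele alone differed by 0.16 ± 0.16 (SE). For melanophores the log2 differences were −0.21 ± 0.25 (SE) for the paternal and −0.57 ± 0.17 (SE) for the rerio allele. For xanthophores they were 0.08 ± 0.31 (SE) and −0.54 ± 0.19 (SE).

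With both alleles summed, glula ran from 1737 through a median of 3816 to 9512 in iridophore-enriched libraries. It ran from 2044 through 7164.5 to 10358 in the melanophore sort, from 2698 through 7064 to 14023 in the xanthophore sort, and from 2945 through 6767.5 to 14524 in unenriched skin. The 4 ranges overlapped. Against unenriched skin of the same hybrid, the mean log2 difference over hybrids was −0.78 ± 0.18 (SE) in iridophores, −0.34 ± 0.18 (SE) in melanophores and −0.13 ± 0.22 (SE) in xanthophores. The 3 values share the unenriched libraries. The medians of all genes were −0.07, −0.04 and −0.05 in the same order, and the xanthophore value turned to 0.03 when size factors were recomputed and to 0.09 without replicate 3. The melanophore value was −0.01 without replicate 4. In these bulk samples, fewer cells that express a gene and less RNA of it per cell cannot be told apart.

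The summed level of glula by group had its top in unenriched aesculapii, at 10892 ± 4037 (SD, n = 3). The lowest groups were iridophore-enriched nigrofasciatus at 4007 ± 919 (SD, n = 3), albolineatus at 3653 ± 278 (SD, n = 3) and kyathit at 3104 ± 1491 (SD, n = 3). Iridophore-enriched aesculapii stood apart from them, at 8107 ± 1277 (SD, n = 3). Neighbours in the order of 16 groups differed by less than the larger of their SDs in all 15 pairs. Within hybrids, the summed iridophore values lay below all 3 unenriched values in albolineatus and kyathit, where 27.6% and 14.6% of tested genes did so, and overlapped them in aesculapii and nigrofasciatus, where 18.4% and 14.8% of genes lay below.

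**Figure D4:**
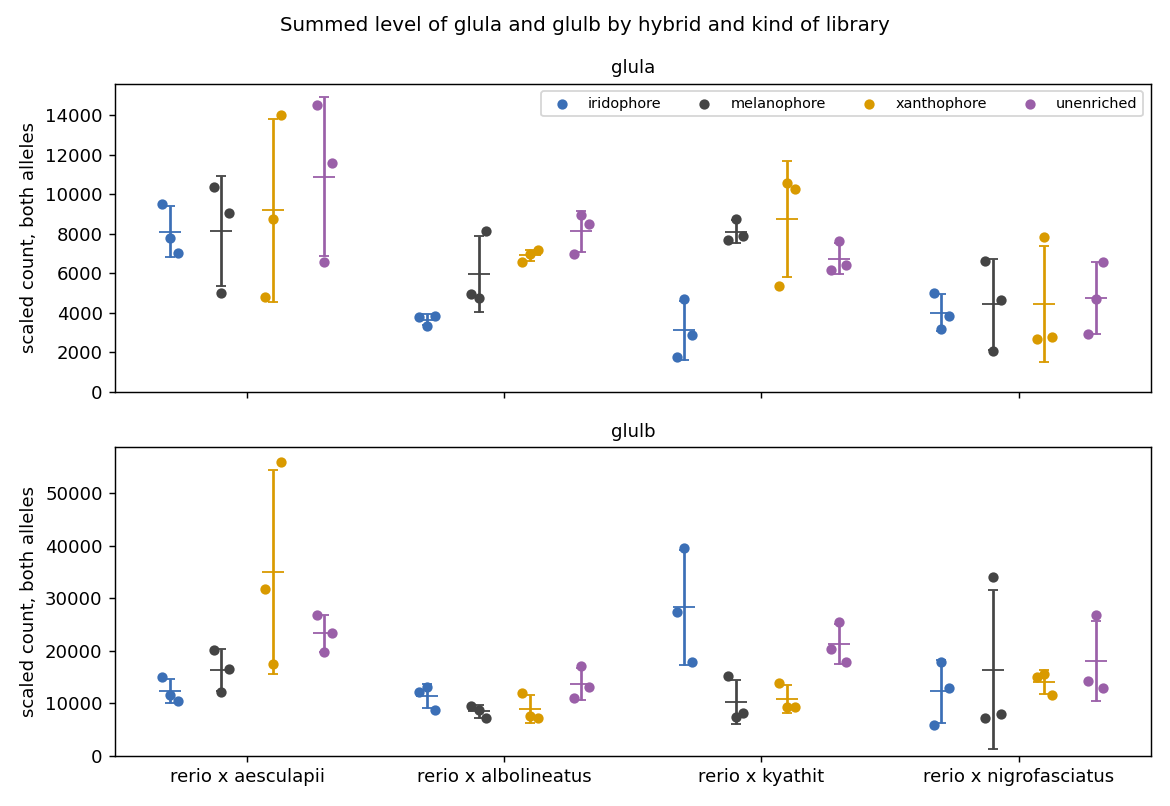
Scaled counts of both alleles of glula (top) and glulb (bottom) in each of 48 libraries, by hybrid and kind of library, with the mean and SD of 3 replicates. For glula, iridophore-enriched kyathit averages 3104 and unenriched aesculapii 10892, and for glulb, xanthophore-enriched aesculapii averages 35056 with an SD of 19492.

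Averaged over the 4 kinds of library, the glula log2 ratio was 0.29 ± 0.15 (SE) in aesculapii, 0.40 ± 0.14 (SE) in albolineatus, 0.75 ± 0.15 (SE) in kyathit and −0.46 ± 0.17 (SE) in nigrofasciatus. It fell to 0.13 in aesculapii without replicate 5, to 0.15 in albolineatus without the unenriched libraries and to 0.43 in kyathit without replicate 4. Such a mean joins kinds of library whose alleles point in opposite directions. The rerio side was taken in 9 of 12 nigrofasciatus libraries, against 3 of 12 in aesculapii and in albolineatus and 4 of 12 in kyathit.

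The second paralog, glulb, did not share the iridophore pattern. Its paternal share was 53.3% ± 12.4 (SD, n = 12) in iridophore-enriched, 41.4% ± 13.9 (SD, n = 12) in melanophore-enriched, 46.7% ± 12.5 (SD, n = 12) in xanthophore-enriched and 46.6% ± 10.4 (SD, n = 12) in unenriched libraries. Its alleles varied with the father: the paternal value was the higher in 12 of 12 aesculapii libraries, 2 of 12 albolineatus, 1 of 12 kyathit and 7 of 12 nigrofasciatus libraries. They varied with the kind of library too, as those 2 albolineatus libraries and that 1 kyathit library were all iridophore-enriched. The share of all genes with such counts was not taken. After centring on each library's other genes, the aesculapii count became 10 of 12. Reads that match glula and glulb alike could be split between them, and how such reads were counted is not given in the sources used here.

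Kyathit held the strongest imbalance of glulb. Unenriched kyathit libraries had rerio values of 13022, 18048 and 11812 against paternal values of 7386, 7436 and 6090, or 36.2%, 29.2% and 34.0% paternal. Melanophore-enriched ones had 33.8%, 19.9% and 18.9%, and xanthophore-enriched ones 48.9%, 29.7% and 29.1%. Iridophore-enriched kyathit libraries had 27.2%, 53.1% and 36.9%, and replicate 4, the high one here, was also the one with nearly equal alleles of glula. In unenriched skin, the centred glulb ratio of all 3 kyathit libraries lay below all 9 of the other hybrids, as it did for 4.04% of 2627 genes. The mean log2 ratio over the 4 kinds was −1.01 ± 0.17 (SE) in kyathit, with 8.38% of the 2660 genes tested below it.

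In aesculapii the glulb alleles leaned slightly to the father, with 59.8%, 59.1% and 52.1% in iridophore-enriched libraries. The shares were 58.7%, 50.4% and 50.7% in melanophore-enriched, 55.7%, 70.2% and 57.4% in xanthophore-enriched and 55.3%, 59.7% and 56.6% in unenriched libraries. The mean log2 ratio was 0.34 ± 0.11 (SE), and 0.18 without replicate 4. In albolineatus the iridophore-enriched libraries had 59.2%, 49.6% and 63.5% paternal glulb, from just under equal alleles upwards. The melanophore-enriched ones had 46.4%, 46.8% and 26.9%, the xanthophore-enriched ones 47.5%, 46.2% and 35.1%, and unenriched skin 47.8%, 43.1% and 46.9%. Its mean log2 ratio was −0.21 ± 0.11 (SE), −0.13 without centring and −0.37 without replicate 3. Melanophore-enriched albolineatus replicate 5 held both the highest paternal share of glula, at 87.5%, and the lowest of glulb in that hybrid.

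In nigrofasciatus glulb was scattered, with 55.7%, 75.0% and 48% in iridophore-enriched libraries. Melanophore-enriched libraries had 55.4%, 53.2% and 35.3%, xanthophore-enriched ones 36.7%, 45.5% and 57.9%, and unenriched skin 39.2%, 59.6% and 51.9%. Every kind held libraries on both sides of equal alleles, and the mean log2 ratio of 0.07 ± 0.17 (SE) ran from −0.30 to 0.22 under other settings. The iridophore shift of glulb was 0.18 in aesculapii, 1.02 in albolineatus, 0.61 in kyathit and 0.81 in nigrofasciatus on the log2 scale. Without centring the aesculapii value was −0.02. Leaving out 1 replicate moved the albolineatus value to as low as 0.50 (without 5), the nigrofasciatus value to 0.38 (without 4) and the kyathit value to between 0.0077 (without 4) and 1.37 (without 3). Averaged over hybrids the shift was 0.66, above 96.5% of the 659 genes, and so opposite in sign to that of glula.

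The summed level of glulb ran from 5873 through a median of 13013 to 39619 in iridophore-enriched libraries. It ran from 7086 through 9139 to 33984 in the melanophore sort, from 7156 through 12945 to 56011 in the xanthophore sort, and from 11015 through 18798.5 to 26856 in unenriched skin. The ranges overlapped again. The mean log2 difference from unenriched skin was −0.45 ± 0.19 (SE) in iridophores, −0.75 ± 0.19 (SE) in melanophores and −0.51 ± 0.23 (SE) in xanthophores. It was below 0 under all 12 alternatives in each sort, but only −0.11 in xanthophores without replicate 4, and in iridophores −0.68 from the rerio and −0.23 from the paternal allele alone.

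By group, glulb was highest in xanthophore-enriched aesculapii, at 35056 ± 19492 (SD, n = 3), from libraries of 31692, 17465 and 56011. The last of these, replicate 5, also had the largest sum over all genes of any library, 12500648 against a median of 6067851. For glulb the next group was iridophore-enriched kyathit, at 28283 ± 10948 (SD, n = 3), in libraries of 27459, 39619 and 17770. The other iridophore groups averaged 11287 to 12305. The kyathit iridophore group was thus the highest of its kind for glulb and the lowest of all groups for glula. Melanophore-enriched albolineatus was the lowest for glulb, at 8455 ± 1239 (SD, n = 3). No neighbours in the order of 16 groups differed by more than both SDs. A single melanophore library, nigrofasciatus replicate 4, reached 33984 against 7247 and 8033 in its group.

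The third paralog, glulc, was barely seen in skin. It was above 0 in 26 of 48 libraries, with a median summed value of 1. It reached an estimated 1 molecule in 5 libraries and 3 molecules in 1. Values above 0 with under 1 estimated molecule, such as 0.0156 in melanophore-enriched kyathit replicate 5, show how rough the estimate is. The highest values were 120 in iridophore-enriched nigrofasciatus replicate 3, of which 113 were paternal, and 109 in unenriched nigrofasciatus replicate 3, of which 97 were paternal. The first stood for an estimated 1.49 molecules, too few for a ratio under the filter used. glulc was tested in no comparison, and a difference between its groups was not detectable at such low values.

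The levels of the 2 expressed paralogs across the 16 group means had r = 0.02 and rho = 0.08 with each other on the log2 scale. Among 6301 genes, the levels most like glula were those of zgc:171679 (r = 0.87), ecm1b (r = 0.85), f3b (r = 0.84), ptgdsb.2 (r = 0.83) and olfml2a (r = 0.82). Those most like glulb were perp (r = 0.86), relt (r = 0.85), mvp (r = 0.84), cx43.4 (r = 0.81) and fam83e (r = 0.80). The correlations are across group means that share libraries' scaling and depth, and are descriptions. With rank correlation, 2 of the 5 remained for each paralog.

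Other genes of glutamine metabolism were taken from lists of 113 genes, of which 93 were in the tables, and were tested with limma against unenriched skin with adjustment over all genes tested. In iridophores, 40 passed the filter on low values. Of these, 8 rose and 14 fell, and 50.7% of all tested genes were called, 24.1% higher and 26.6% lower. Their share, 55.0%, was near that background. With recomputed size factors the share of higher calls among all called genes moved from 47.6% to 53.3%. All 8 that rose passed the filter in both kinds of library. Of the 14 that fell, cad, got1, oat and slc7a7 passed only through unenriched skin, where they were higher. Their calls therefore support nothing, and only their levels are given. The counts and the share above, and the counts by list below, still include these calls. The median log2 difference of the list was −0.39 against −0.07 for all genes. Reads of paralog pairs such as slc3a2a and slc3a2b or atf4a and atf4b could be split, as for the synthetases.

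The amidotransferase list had 2 of 5 tested genes higher and 1 lower in iridophores. ppat, the amidotransferase that commits glutamine nitrogen to purine synthesis, ran from 382 through a median of 804 to 2432 in iridophore-enriched libraries and from 37 through 229.5 to 555 in unenriched skin. Its log2 difference was 1.85 ± 0.25 (SE, adjusted p = 2.07e-08), with all 12 iridophore-enriched libraries above their hybrid's unenriched mean. Of 13 genes of glutamate breakdown and use, 3 rose and 4 fell. phgdh, the first enzyme of serine synthesis, ran from 819 through 1931 to 3583 against 119 through 355 to 520, so that no library overlapped. Its log2 difference was 2.43 ± 0.21 (SE, adjusted p = 2.97e-13), and psph, the last enzyme of that route, rose by 1.5 ± 0.20 (SE, adjusted p = 2.97e-08), each higher in 12 of 12 libraries. psat1, the glutamate-dependent step between them, rose by 0.88 (adjusted p = 0.00529), and gmps, which uses glutamine to make GMP, by 0.72 (adjusted p = 0.012). The gmps and psat1 calls were lost without weights and with the paternal allele alone, and that of gmps also without replicate 4 or 5. How many of all genes had a gap like that of phgdh was not counted. Nor was the number with all 12 libraries above the unenriched mean.

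cad, which starts pyrimidine synthesis, ran from 0 through 36 to 192 in iridophore-enriched libraries and from 96 through 133.5 to 1261 in unenriched skin. oat, the ornithine aminotransferase, ran from 0 through 94.5 to 186 against 75 through 269 to 593. got1, the cytosolic aspartate aminotransferase, ran from 8 through 100.5 to 230 against 94 through 216.5 to 361. The ranges overlapped for all 3 genes. aldh18a1, which turns glutamate towards proline, had a log2 difference of −0.91 (adjusted p = 0.0317). None of 10 transporters rose and 4 fell. slc7a7, a light chain of a cationic amino acid and glutamine exchanger, ran from 10 through 37.5 to 283 against 97 through 283.5 to 474. slc1a5, a neutral amino acid transporter, differed by −0.76 (adjusted p = 0.0241) and slc3a2b, a heavy chain of such exchangers, by −0.70 (adjusted p = 0.00103). Of 3 glutathione genes, chac1, which breaks glutathione down, fell by 0.80 (adjusted p = 0.000325) and gclc, which starts its synthesis, by 0.63 (adjusted p = 0.0472). The gclc call was lost under 9 of 11 alternatives, and those of aldh18a1, slc1a5, slc3a2b and chac1 under 4, 4, 1 and 1. Of the fibroblast markers 8 of 8 tested fell too, with summed values of 8743 to 94499 in these libraries against 98767 to 959376 in unenriched skin. Of the macrophage and leukocyte markers 9 of 11 fell, with sums of 5014 to 26120 against 14088 to 40690. Of the keratinocyte markers 8 of 10 fell and 1 rose, with sums of 23734 to 219714 against 112389 to 267354, and of the erythrocyte markers 6 of 6 fell, with sums of 49 to 4606 against 3581 to 77268. No listed marker was at 0 in every library, and the part of these markers in the falls was not tested.

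Genes of synthetase turnover and nitrogen stress split evenly in iridophores, 3 up and 3 down of 8 tested. rbx1, a subunit of cullin ubiquitin ligases, rose by 1.05 ± 0.17 (SE, adjusted p = 9.06e-07), and the stress factors atf4a and atf4b rose by 0.59 (adjusted p = 0.00222) and 0.35 (adjusted p = 0.0174). zbtb16a, a zinc finger transcription factor, fell by 2.20 (adjusted p = 4.51e-06), the ligase scaffold cul4b by 0.84 (adjusted p = 0.0161) and nr3c1, the glucocorticoid receptor, by 0.64 (adjusted p = 0.0164). rbx1 and zbtb16a kept their calls under all 12 alternatives. The calls of atf4a, atf4b, cul4b and nr3c1 were lost under 3, 5, 3 and 6 of theirs.

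In melanophores 24 pathway genes were tested, and 6 rose and 6 fell, against 34.9% of all genes called, 18.6% higher and 16.2% lower. With recomputed size factors the share of higher calls among all called genes moved from 53.4% to 65.8%, as the median of all genes moved up by 0.13 on the log2 scale. Of 9 transporters tested, 4 were called higher and 3 lower. All 4 of the higher ones, slc38a11, slc3a2a, slc7a7 and slc7a8a, passed the filter through the melanophore libraries alone. These calls therefore support nothing, and levels are given as a description. The 6 pathway genes that rose still include these 4. slc38a11, a member of the amino acid transporter family SLC38, ran from 101 through 608 to 1914 in melanophore-enriched libraries and from 0 through 6.5 to 162 in unenriched skin. The ranges overlapped, and the unenriched libraries were near 0. slc3a2a ran from 227 through 471 to 1970 against 46 through 101 to 623. slc7a7 ran from 461 through 925.5 to 2245 against 97 through 283.5 to 474. The summed macrophage and leukocyte markers ran from 53033 to 104166 in the same libraries against 14088 to 40690 in unenriched skin, 6 of 9 tested rose and 1 fell, and their part in the slc7a7 levels was not tested.

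Other transporters fell in melanophores: slc1a5 by 1.14 (adjusted p = 0.00568), slc38a5b by 0.97 (adjusted p = 0.000943) and slc38a2 by 0.91 (adjusted p = 0.00302), the last being a transporter of small neutral amino acids. chac1 fell by 0.81 (adjusted p = 0.000874). glud1b, a glutamate dehydrogenase, rose by 0.55 (adjusted p = 0.0434) and rbx1 by 0.52 (adjusted p = 0.0241), and zbtb16a fell by 0.98 (adjusted p = 0.0267) and nr3c1 by 0.77 (adjusted p = 0.0326). These last 4 calls were lost under 5 to 7 of their alternatives, those of chac1, slc38a2 and slc1a5 under 2, 2 and 1, and that of slc38a5b under none. All of the 3 amidotransferases tested missed the threshold.

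In xanthophores 0 of 24 tested pathway genes passed the threshold with limma, and 6 had an unadjusted p under 0.05. In simulated data with an assumed scatter, 48.9% of 2-fold and 98.75% of 4-fold changes were called in this comparison. A count of 0 is therefore not an absence of change. Of all genes, 14.0% were called, 8.53% higher and 5.52% lower. The count was 0 without weights, 2 with recomputed size factors and 1 with the replicate block. Recomputed size factors also moved the share of higher calls among all called genes from 60.7% to 77.5% and the median of all genes by 0.15. ppat had a log2 difference of 0.86 ± 0.36 (SE, adjusted p = 0.0951) there, from 73 through 392 to 1296 in the sorted libraries, and was named after its value was seen.

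**Figure D5:**
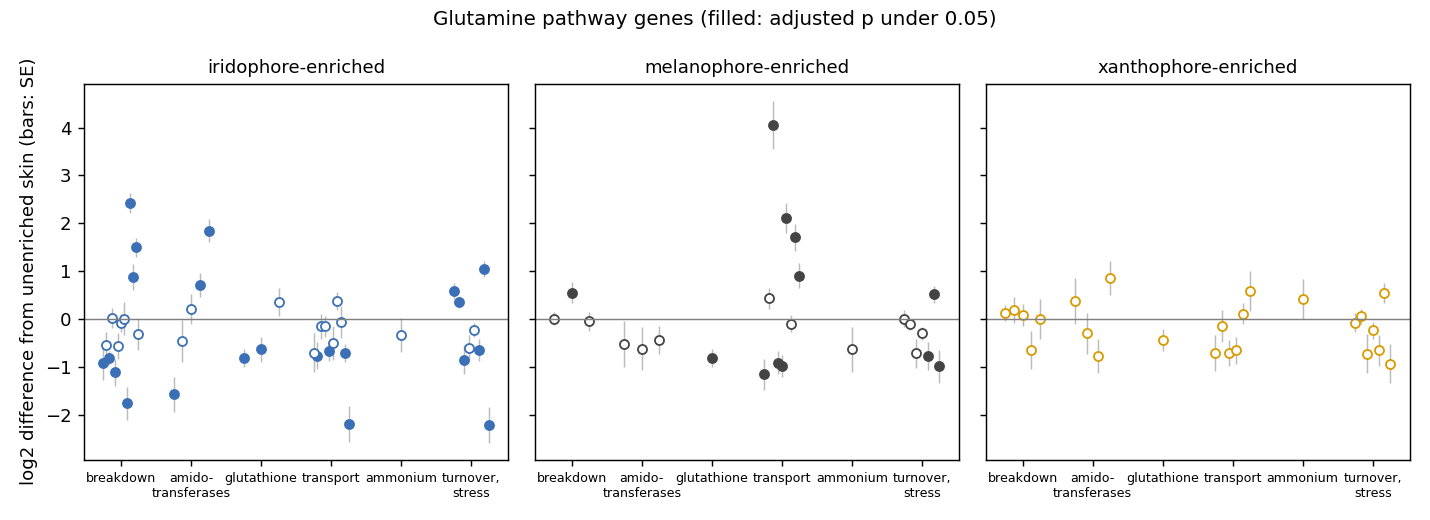
Log2 difference of each tested glutamine pathway gene from unenriched skin, with its SE, in the 3 sorts, by list; filled points passed the adjusted p threshold of 0.05. In iridophores 8 rose and 14 fell of 40, in melanophores 6 and 6 of 24, and in xanthophores 0 of 24 were called; 4 called genes in the iridophore and 4 in the melanophore sort passed the filter through 1 kind of library only.

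Between alleles, over all kinds of library of a hybrid, 12 to 15 pathway genes could be tested. Of 12 in aesculapii, 4 were higher from the paternal and 2 from the rerio allele, against 31.8% of all genes called, 12.7% paternal and 19.1% rerio. The counts were 4 and 3 of 13 in albolineatus against 44.5% (19.1% paternal, 25.3% rerio). They were 5 and 3 of 15 in kyathit against 44.4% (20.6% and 23.8%), and 4 and 4 of 13 in nigrofasciatus against 54.8% (23.4% and 31.4%). With so few genes tested, nothing is read from these shares. Without centring, all called genes moved from 398 paternal and 527 rerio to 472 and 472 in albolineatus, and from 443 and 594 to 554 and 512 in nigrofasciatus.

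chac1 was called for the rerio allele in all 4 hybrids. Its paternal share over 12 libraries ran from 7.17% through a median of 21.9% to 32.6% in albolineatus and from 12.1% through 21.6% to 30.4% in nigrofasciatus, with no library on the paternal side in either. It ran from 20.5% through 31% to 51.6% in kyathit and from 32.4% through 41.9% to 61.5% in aesculapii. The centred log2 ratios were −2.18 ± 0.16 (SE, adjusted p = 4.33e-09), −1.93 ± 0.14 (SE, adjusted p = 2.28e-08), −0.99 ± 0.13 (SE, adjusted p = 9.47e-06) and −0.45 ± 0.15 (SE, adjusted p = 0.0343) in the same order. The aesculapii call was lost under 6 of 9 alternatives and the other 3 under none. How many of all genes were called for rerio in all 4 hybrids was not counted.

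atf4a was called for the father in 3 hybrids and for rerio in nigrofasciatus. Its log2 ratio was 1.72 ± 0.19 (SE, adjusted p = 9.85e-07) in aesculapii, 0.66 ± 0.20 (SE, adjusted p = 0.0106) in albolineatus and 1.37 ± 0.15 (SE, adjusted p = 1.74e-06) in kyathit, but −1.23 ± 0.14 (SE, adjusted p = 2.94e-06) in nigrofasciatus. All 12 aesculapii and 12 kyathit libraries were on the paternal side and all 12 nigrofasciatus libraries on the rerio side. The albolineatus call was lost without replicate 4 and without the unenriched libraries. The share of all genes with all 12 libraries of a hybrid on the same side was not counted.

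Of the transport genes tested, 2 of 4 were called in aesculapii, 1 of 3 in albolineatus, 2 of 3 in kyathit and 2 of 2 in nigrofasciatus. slc3a2b was higher from the father in aesculapii, by 0.65 (adjusted p = 0.00721), in kyathit, by 1.1 (adjusted p = 5.77e-06), and in nigrofasciatus, by 0.70 (adjusted p = 0.000214). slc38a5b was higher from rerio in those hybrids, with log2 ratios of −0.69 (adjusted p = 0.0176), −0.91 (adjusted p = 0.00224) and −1.16 (adjusted p = 0.000729). In albolineatus slc38a10, another member of the SLC38 family, had a ratio of −1.29 (adjusted p = 0.000169), while slc3a2b at 0.17 (adjusted p = 0.173) and slc38a5b at −0.21 (adjusted p = 0.375) missed the threshold. The call of slc38a5b in aesculapii was lost under 3 of its alternatives. How many of all genes had calls in the same direction in several hybrids was not counted.

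Among the other lists, phgdh had a ratio of −0.97 (adjusted p = 0.0207) in albolineatus. glud1a was higher from the father in aesculapii, by 0.52 (adjusted p = 0.00844), and glud1b in albolineatus, by 0.60 (adjusted p = 0.00885), and in nigrofasciatus, by 0.68 (adjusted p = 0.00383). ddb1, the adaptor that joins cereblon to its ubiquitin ligase, was higher from rerio in kyathit, at −0.98 (adjusted p = 0.000432). In aesculapii its ratio was 0.63 (adjusted p = 0.0944). It had too few estimated molecules for a test in the other hybrids. Its paternal share ran from 9.91% through a median of 19.7% to 39.4% in albolineatus and from 4.65% through 11.7% to 29.0% in nigrofasciatus. In kyathit the share ran from 11.3% through 31.5% to 51.2%. The calls of glud1a in aesculapii and of glud1b in albolineatus were each lost under 1 alternative.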

How the data were processed

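The deposited unit is a score: the authors had scaled counts per allele and rounded them to whole numbers. Recomputing size factors on the 96 columns of alleles gave 0.997 to 1.0029. The allele columns of a library were thus each on the common scale, and the ratio of their reads before scaling was not recovered. Per the submitters' processing notes, GRCz11, featureCounts and DESeq2 1.44.0 were used. Which aligner, allele assignment or filter was applied is not stated in the sources used here. Polyadenylated RNA was prepared with a SMART-seq2 kit and sequenced from Nextera libraries, per the labels. Whole reads were not recovered, so no count test was run.

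The value of 1 molecule was set for each library so that the scatter of allele shares between replicates equalled binomial sampling. Genes with summed values of 300 to 3000 were used. Real differences between replicates were thus counted as sampling, so depths are estimates and can be too low. PCR copies were not marked. Levels were fitted with limma 3.58.1 (R 4.3.3) on log2(summed value + 20), 16 group means over 48 libraries, with weights by level, trend and robust variances. Genes needed a mean scaled value, over both kinds compared, worth 5 molecules at the median value per molecule of the sorted kind. That cutoff was 152.6 scaled counts for iridophores, 308.1 for melanophores and 331.0 for xanthophores. Allele ratios had a pseudocount of 0.5 molecules, were centred per library, left out where under 3 molecules, and fitted over the 12 libraries of a hybrid. A gene needed 5 molecules in at least 2 of 3 libraries of each kind. Tests were two-sided, with Benjamini-Hochberg adjustment over all genes tested and a threshold of 0.05. Both scripts were tested on simulated data, where 34.4% of 2-fold changes were called in iridophores, 56.5% in melanophores and 48.9% in xanthophores. False calls made up 6.45%, 3.65% and 5.34% of the calls in the same order. The first and last of these exceeded the threshold of 0.05. The alternatives were other pseudocounts, size factors, filters and weights, a replicate block, left-out replicates or unenriched libraries, and single alleles.

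Members and lists were chosen with earlier results of these data known. Named were the 3 paralogs, the 5 genes most like each, up to 3 called genes per pathway list and direction in a sort, up to 5 per allele comparison, and the reporters. Replicate numbers equal the labels' batch numbers, so they pair the samples. Same-numbered sorted and unenriched libraries correlated in their deviations at −0.13 to 0.25 (median 0.09), over 0.1 in 15 of 36 pairs. The same number was the best match in 24 of 36 pairs. The main fits left the pairing out, and the replicate block was an alternative. No genome, protein or promoter sequence was used.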

Additional observations from a re-analysis of the deposited data

Results flagged for a closer look

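For glula, every iridophore-enriched library had a centred log2 ratio below 0 and every library of a compared kind one above 0 in several groups, and the differences were not tested. The share of all genes with such a split of signs was not counted. In aesculapii the iridophore mean lay −2.18 from that of melanophores, −2.60 from xanthophores and −2.14 from unenriched skin. In albolineatus it lay −3.87, −3.67 and −3.47 from them. In kyathit it lay −2.21 from melanophores and −2.50 from xanthophores.

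Unenriched libraries of some hybrids also took opposite sides, again not tested and with the share of all genes not counted. For glula, aesculapii stood 1.1 and albolineatus 1.59 above nigrofasciatus on the log2 scale. For glulb, aesculapii stood 0.65 above albolineatus and 1.49 above kyathit.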

How the results depend on the processing

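With no filter on low values the pathway calls became 37, 23 and 11 in iridophores, melanophores and xanthophores, and 11, 18, 17 and 19 between alleles in aesculapii, albolineatus, kyathit and nigrofasciatus; all genes called became 7111, 3427, 3105, 1342, 2566, 2805 and 2624, with more genes tested. Without weights the iridophore pathway count fell to 12. With the rerio allele alone, pathway calls were 12 and 5 and all calls 1941, 629 and 273 in iridophores, melanophores and, for all calls, xanthophores; with the paternal allele alone they were 10 and 4, and 1821, 558 and 191. The glula iridophore difference was 0.16 from the rerio allele and −2.18 from the paternal one. Recomputed size factors gave 2 xanthophore pathway calls. Leaving out the unenriched libraries gave 275 calls in aesculapii. The causes were not tested.

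The replicate block gave 1 xanthophore pathway call in place of 0 and moved no other count by over 1.5 times. Against unenriched skin it did not model pairs within a hybrid, so the effect of that pairing was not tested.

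Without 1 replicate, pathway calls were 13 to 17 in iridophores (13 without 4), 4 to 8 in melanophores (4 without 3, 5 without 4) and 3 to 6 in albolineatus (3 without 3, 4 without 4). All calls were 550 to 927 in melanophores (631 without 3, 550 without 4) and 64 to 284 in xanthophores (138, 64 and 284 without 3, 4 and 5). Between alleles they were 158 to 248 in aesculapii (248, 158 and 217), 386 to 661 in albolineatus (386 without 3, 419 without 4), 443 to 591 in kyathit (443, 556 and 591) and 434 to 898 in nigrofasciatus (434 without 4, 442 without 5). The glulb iridophore shift in kyathit was 0.0077 to 1.37, the latter without replicate 3. Against unenriched skin, the glula value changed sign under 1 of 12 alternatives in iridophores and 3 of 12 in xanthophores, and no glulb value did. The 2 lists of most similar genes kept 2 of 5 by rank. Of the named pathway genes' values under alternatives, 418 kept their call, 83 missed the threshold and none changed sign.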
